A study of Mus musculus with 8 samples.

Results

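The arcuate nucleus of female mice carrying a miR-7 sponge was compared with that of wild type females at the level of single transcripts. The transcripts described are those with a mean FPKM (fragment counts scaled by transcript length and by the sequenced total) of at least 1 over the 4 female libraries. This held for 17897 of the 24478 listed transcripts, which belong to 11881 of 13447 gene names. Of these genes, 8208 had 1 kept transcript and 3673 had 2 or more, up to 13. The sponge group was Pomc-Cre;miR-7-sponge (2 libraries, sponge 1 and sponge 2) and the controls were wild type female littermates (2 libraries, wild type 2 and wild type 4). All animals were C57BL/6 mice aged 4 months, and each library came from the pooled arcuate nuclei of 2 mice. The series also holds 2 libraries of Pomc-Cre;miR-17-92flox/flox males and 2 of wild type males, whose values are given beside some results.

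The Pomc promoter drives Cre only in a part of the cells of the nucleus, whereas RNA came from the whole dissected tissue. The controls are labelled wild type, so an effect of the Cre transgene and one of the sponge cannot be told apart. The sponge transcript and the level of miR-7 itself were not analysed here. The labels do not say whether the pools of a group came from separate litters, and the p-values then measure only the spread between libraries.

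MicroRNAs guide Argonaute proteins to messenger RNAs, mostly through pairing of a short seed near their 5′ end with sites in the 3′ UTR, and lower the stability and translation of the target. miR-7 is an old, highly conserved microRNA that is abundant in neuroendocrine cells of the hypothalamus and pituitary. A sponge is a transcript with repeated binding sites that occupies a microRNA and so relieves its targets. One gene often gives several transcripts through alternative promoters, splicing and polyadenylation, and these can differ in protein sequence and in whether a microRNA site is present at all.

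The mature miR-7 sequences are shown because their seed defines the sites searched below. They are RefSeq sequences (GRCm38.p6), with the seed, bases 2 to 8, in capitals. miR-7a is made from loci on chromosomes 7 and 13 and miR-7b from a locus on chromosome 17, and all share the seed.
mmu-miR-7a-5p: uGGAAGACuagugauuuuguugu
mmu-miR-7b-5p: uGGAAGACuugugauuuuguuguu

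FPKM over the listed transcripts summed to between 192934 and 203750 per library, and between 1574 and 2118 listed transcripts stood at 0 in a library. The depth in reads is unknown, because the files hold no counts, and per the labels the raw file of second reads of sponge 2 was lacking. Across kept transcripts, log2(FPKM + 1) correlated with a Pearson r of 0.802 between the sponge libraries, 0.816 between the wild type libraries and 0.806 to 0.829 between libraries of different groups. Libraries of a group were thus no more alike than libraries of different groups. The pools also differed strongly in single genes, shown here by 3 genes chosen after their values were seen. Ttr, the transthyretin gene of the choroid plexus, had a gene FPKM of 8.199, 35.4, 510.04 and 5.03 in sponge 1, sponge 2, wild type 2 and wild type 4. Sst, which encodes somatostatin, had 187, 10.2, 1.67 and 5.91. Nnat, the neuronatin gene, had 277, 338, 349 and 23.8. Ttr was high in wild type 2, Sst in sponge 1, and Nnat was low in wild type 4. Whether these values reflect the tissue content of the pools was not tested, nor was the part of such differences in the results below. In tissue RNA, fewer cells of a type and less RNA per cell cannot be told apart. Below, values for the 4 female libraries always follow this order.

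No transcript passed the test of level between the groups. With limma on log2(FPKM + 1) and a Benjamini-Hochberg adjusted p under 0.05 as threshold, 0 of 17897 transcripts were called, and the smallest adjusted p was 0.0916. At an unadjusted p under 0.05 there were 772 transcripts, or 4.31%, of which 333 (1.86%) were higher and 439 (2.45%) lower in the sponge group. The libraries of the groups did not overlap for 5598 transcripts (31.3%), with 2244 (12.5%) higher and 3354 (18.7%) lower in the sponge libraries. The median log2 difference over all transcripts was -0.04. With 2 libraries against 2, an exact permutation test of a single transcript cannot go below p = 0.333.

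The transcripts of smallest p were in large part present in one group and listed at 0 in the other. None of them passed. Hist3h2ba-001, from a histone H2B gene, stood at 32.1 and 32.3 FPKM with the sponge and at 0 in the wild types (limma adjusted p = 0.0916). Hist2h2ac-001, from a histone H2A gene, stood at 26.7 and 29.1 FPKM with the sponge and likewise at 0 in the wild types (adjusted p = 0.0916). The male libraries show how this transcript varies without a sponge: it had 34.7 and 29.8 in the knockout males, and 0 and 33.8 in the wild type males. Irf2bp1-001, which encodes a transcriptional corepressor, had 15.9, 17.1, 0 and 0. Tbcc-201, which encodes the tubulin folding cofactor C, had 13.0, 9.90, 0 and 0. Tbcc-201 was also on in 1 knockout male (13.3) and 1 wild type male (12.4) and at 0 in the other 2 male libraries. Pnrc1-001, which encodes a nuclear receptor coactivator, had 36.5, 26.9, 1.19 and 0.844.

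In the other direction, Vgf-201 was at 0 FPKM with the sponge against 55.7 and 47.6 in the wild types (adjusted p = 0.0916). Vgf encodes a secreted neuroendocrine precursor with a role in energy balance. Hist1h4b-001, from a histone H4 gene, had 0, 0, 55.1 and 36.6. Hexim1-001, which encodes an inhibitor of the elongation factor P-TEFb, had 0, 0, 12.4 and 15.2. Tril-001, which encodes a Toll-like receptor accessory protein, had 0, 0, 13.6 and 13.3. Kcnj16-002, which encodes an inwardly rectifying potassium channel subunit, had 0.0150, 0, 12.1 and 14.2. Male libraries without a sponge again held both states: Tril-001 was at 0 and 1.46 in the knockout males and at 17.1 and 0 in the wild type males, and Vgf-201 was at 0 and 51.8, and at 64.5 and 62.0.

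**Figure D1:**
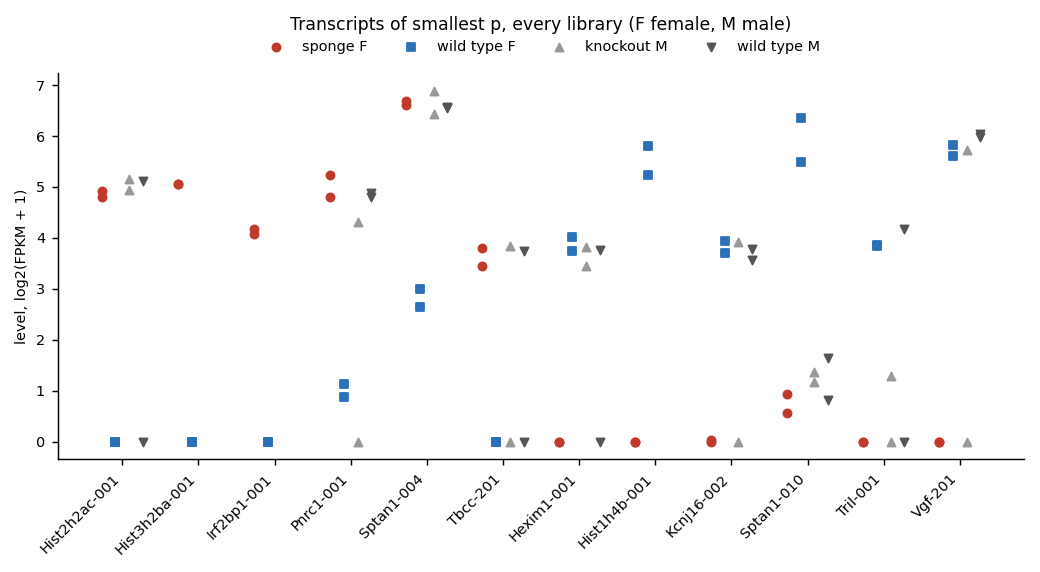
Level, as log2(FPKM + 1), of the 12 transcripts of smallest p with groups that do not overlap, in the 4 female and 4 male libraries, 1 point per library (circles sponge females, squares wild type females, upward triangles knockout males, downward triangles wild type males). Several transcripts at 0 in one female group are also at 0 in some male libraries and high in others, such as Tril-001 and Tbcc-201, and 3 transcripts were not listed in the male table.

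Gene totals gave a few calls. Of 11953 genes, 14 (0.117%) had a limma adjusted p under 0.05, 7 higher and 7 lower in the sponge group (0.0586% each). At an unadjusted p under 0.05 there were 456 (3.81%), of which 1.6% of all genes were higher and 2.22% lower. Each of the 14 had 1 kept transcript, 10 had a single exon and none more than 2, and 10 were listed at 0 in both libraries of a group. Higher genes included Hist3h2ba, Hist2h2ac, Irf2bp1, Tbcc and Pnrc1, and lower genes included Tril, Hexim1, Hist1h4b and Kcnj16. The gene total of Pnrc1 was 29.0 and 22.1 FPKM with the sponge against 1.41 and 1.35 in the wild types, a log2 difference of 3.47 ± 0.19 (SE, n = 2 and 2, limma adjusted p = 0.044). No gene was called once any 1 library was left out.

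Transcripts that were on in one group and off in the other were a small class in which transcripts of 1 or 2 exons were more frequent than among all kept transcripts. Of the kept transcripts, 77 (0.43%) were listed at 0 in both libraries of a group and at 1 or more in both of the other, 37 off in the sponge libraries and 40 off in the wild type libraries. Transcripts with 1 or 2 exons made up 29.7% of the 37 and 35% of the 40, against 5.4% of all kept transcripts with a known exon number. Among those also listed in the male table, 29 of 32 and 24 of 26 were at 0 in one male library and at 1 or more in another. Of all kept transcripts listed there, 11.3% were. The 77 were chosen for zeros in the female libraries, so a higher percentage in the males was likely from the start. Switching between 0 and a higher level also occurred within groups. Of the 17897 kept transcripts, 228 in the sponge group and 181 in the wild type group were at 0 in one library and at 5 or more in the other. Between groups, 7 were at 0 in both sponge libraries and at 5 or more in both wild type libraries, and 8 showed the reverse. The pattern between groups needs all 4 libraries to agree, whereas that within a group needs only 2 to differ. These counts are thus not on the same footing.

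The share of each transcript in its gene was tested next, to ask whether the make-up of a gene differed beyond its total. The share is the FPKM of a transcript over the summed FPKM of all listed transcripts of the gene. It was tested as log2 of the transcript's FPKM over that of the gene's other transcripts, each plus 1. Of 11442 shares, 0 passed with limma, and the smallest adjusted p was 0.958. At an unadjusted p under 0.05 there were 530 (4.63%), 259 (2.26%) higher and 271 (2.37%) lower in the sponge libraries. limma's diffSplice, an alternative that compares each transcript with the rest of its gene, called 13 of the 9689 kept transcripts it tested. It pools the variance over the transcripts of a gene as if they were independent, although the library is the replicate.

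Sptan1 had the smallest p for a share. The gene encodes αII-spectrin, the main nonerythroid spectrin of the membrane skeleton. Its total was 76.6, 72.2, 87.8 and 71.9 FPKM and did not separate the groups. Sptan1-004 had an FPKM of 102, 96.5, 6.93 and 5.22, which is a share of 80.3% and 80.4% with the sponge against 4.68% and 4.37% in the wild types (limma adjusted p = 0.958 for the share, and 0.0151 with diffSplice). In its place, Sptan1-010 had 0.484, 0.898, 43.9 and 81.1 FPKM, and Sptan1-003 had 4.97, 5.60, 76.3 and 7.42. The wild type libraries thus differed from each other in which transcript stood in for Sptan1-004. In the 4 male libraries Sptan1-004 held 70.5%, 91.5%, 76.6% and 69.9%, so the knockout males and the wild type males both resembled the sponge females in this gene. Sptan1-004 and Sptan1-010 share 94.6% of their bases, and their coding sequences (7434 and 7497 bases) differ by 1 exon of 63 bases. That exon, coding bases 6708 to 6770 of Sptan1-010, lies at chr2:30028644-30028706 on the plus strand (GRCm38, GENCODE M21) and is printed whole because it is the only coding difference between the pair.
Sptan1-010 exon absent from Sptan1-004: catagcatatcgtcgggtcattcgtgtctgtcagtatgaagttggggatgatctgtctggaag

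The other genes of smallest share p also differed in share, but for some, such as Rab33b, the gene total separated the groups as well. Prmt2, which encodes an arginine methyltransferase, had Prmt2-001 at 39.7, 33.5, 4.01 and 5.76 FPKM, a share of 72.1%, 58.3%, 7.22% and 10.5%. Prmt2-001 held 65.5% to 77.5% in the 4 male libraries. Prmt2-201, with an identical coding sequence, had 12.9, 17.8, 51.5 and 22.6. In Vgf, Vgf-001 and Vgf-201 have the same coding sequence, and Vgf-001 has 281 further bases, with 5 exons against 2. Vgf-001 had 15.1, 1.24, 1.61 and 0.601 FPKM, so with Vgf-201 at 0 it made up 100% of a low total in the sponge libraries. Dhcr7, which encodes the last enzyme of cholesterol synthesis, had Dhcr7-009 at 75.9%, 57.5%, 0.0912% and 0.399% and Dhcr7-201 at 4.74%, 7.16%, 99.3% and 93.7%, with an identical coding sequence. In the male libraries Dhcr7-201 was at 1.42, 7.42, 10.01 and 1.30 FPKM. Rab33b-001, which encodes a Golgi small GTPase, made up 100% in both sponge libraries and 34.2% and 19.3% of the wild type signal. The Rab33b total was 8.78, 9.46, 4.35 and 3.93 FPKM and was not called. Pan3-001, from a gene of the poly(A) tail shortening complex, made up 100%, 81.5%, 13.2% and 3.36%. The groups did not overlap for any of these shares, and none passed.

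**Figure D2:**
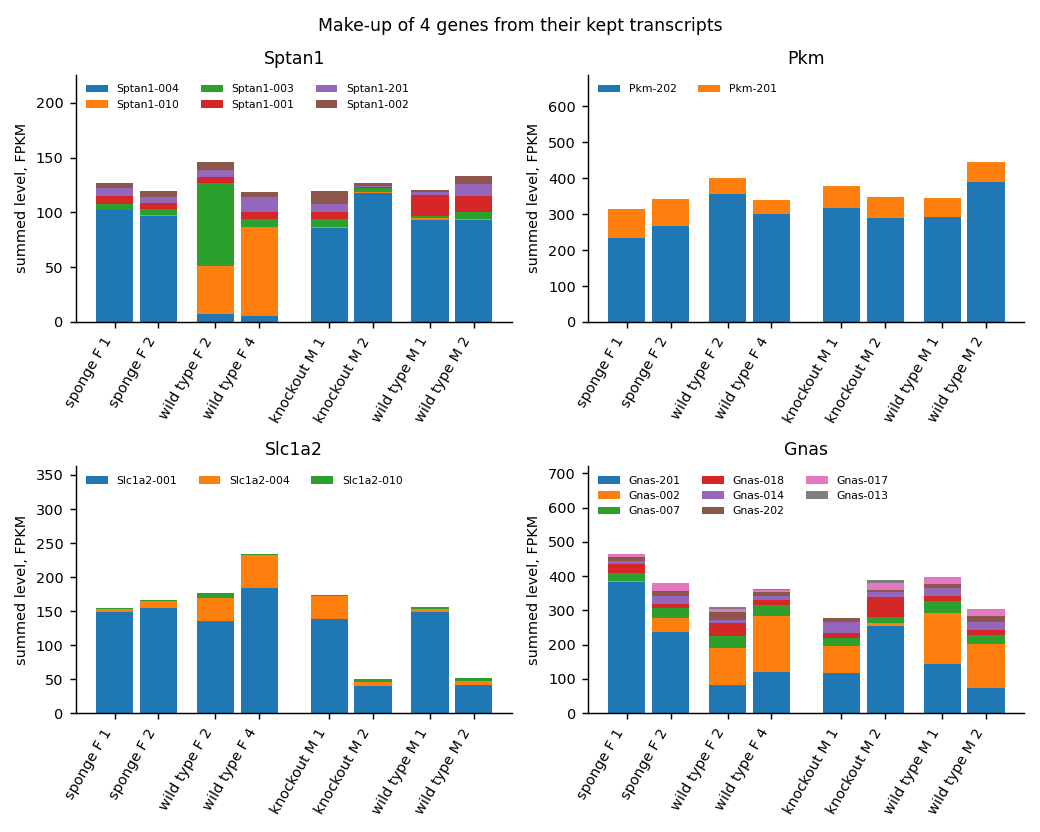
Summed FPKM of the kept transcripts of Sptan1, Pkm, Slc1a2 and Gnas in each of the 4 female and 4 male libraries, stacked by transcript (F female, M male). Sptan1-004 makes up 80.3% and 80.4% in the sponge libraries and at least 69.9% in the male libraries but 4.68% and 4.37% in the wild type females, whereas the Pkm and Slc1a2 differences are smaller.

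The leading transcript of a gene, the one with the highest FPKM, was the same in all 4 libraries for 2061 of 3638 genes (56.7%) with 2 or more kept transcripts and a sum of at least 1 FPKM in each library. It was one transcript in both sponge libraries and another in both wild type libraries for 120 genes (3.3%). It differed between replicates of at least 1 group for 1457 genes (40%), namely within the sponge group alone for 561, within the wild type group alone for 474 and within both for 422. Genes with 2 kept transcripts kept their leading transcript in 61% of cases and genes with 5 or more in 42.7%. A swap needs agreement within both groups, whereas a difference within 1 group is enough for the other class, so these percentages are not on the same footing.

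**Figure D3:**
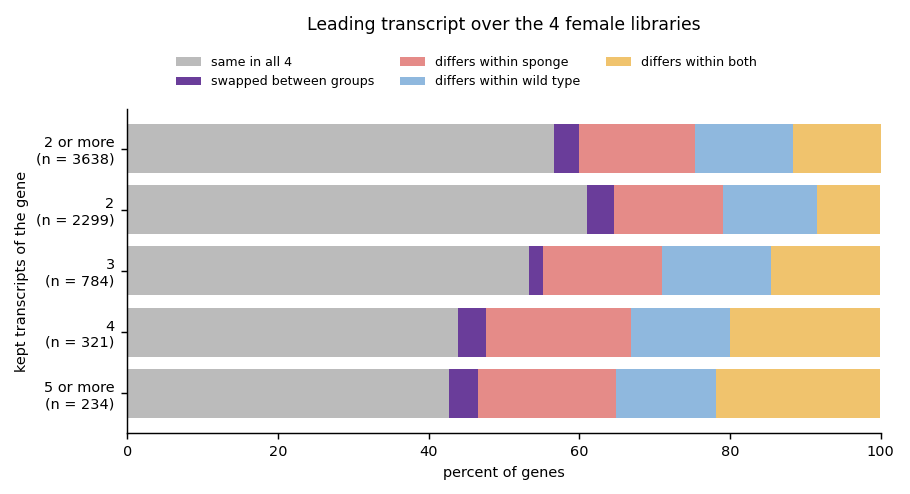
Percent of genes by whether their leading transcript was the same in all 4 female libraries, swapped between the sponge and wild type groups, or differed between replicates, for genes with a given number of kept transcripts. Clean swaps make up 1.91% to 3.85% in each row, and a difference between replicates of at least 1 group 35.4% to 53.4%; the classes differ in how many libraries must agree.

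The transcript with the highest mean FPKM of a gene held a median share of 69.3%, here taken of the summed FPKM of its kept transcripts alone. Between replicates its share differed by a median of 11.2 percentage points in the sponge group and 10.4 in the wild type group. Across groups the mean of the 4 pairwise differences had a median of 13.8 points. The 90th percentiles were 44.8, 39.8 and 34.4 points, the last of them an average over pairs, which trims extremes.

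**Figure D4:**
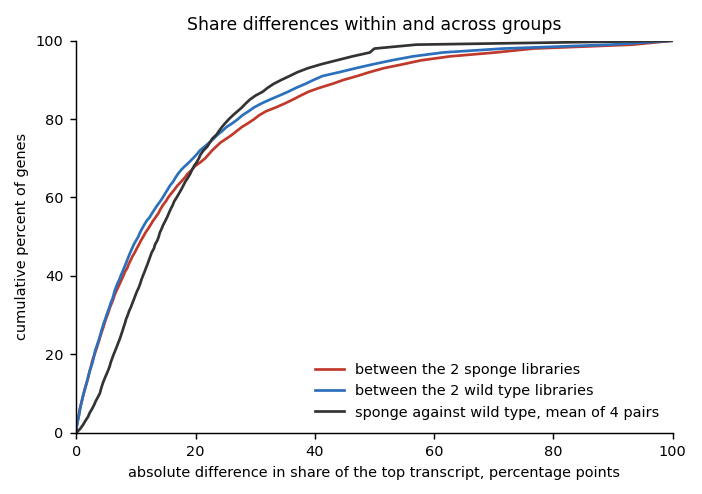
Cumulative percent of genes by the absolute difference in share of the top transcript, in percentage points, between the 2 sponge libraries, between the 2 wild type libraries and across groups (mean of the 4 pairs, which averages out extremes). The medians are 11.2, 10.4 and 13.8 points, with shares taken of the summed FPKM of kept transcripts.

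Among the 120 swapped genes, those with the highest sum included transcripts with different proteins. Apoe, the apolipoprotein of astrocyte lipoproteins, led with Apoe-001 in the sponge libraries (94.9% and 52.9%) and with Apoe-003 in the wild type libraries (47.1% and 33.4%), where Apoe-001 held 13.7% and 13.8%. Apoe-003 is a short transcript with 216 coding bases against 936. In the males Apoe-001 ranged from 5.80% to 96.9%. Ncam1-001, a form of the neural cell adhesion molecule with 2547 coding bases, had 38.7, 56.8, 30.9 and 11.6 FPKM. Ncam1-005, with 2178 coding bases and another end, had 29.9, 35.8, 43.7 and 56.4. Psip1-001, the long form of a chromatin-tethering coactivator, had 15.6, 16.4, 10.5 and 10.4 FPKM, and the shorter Psip1-003 had 14.9, 9.96, 23.1 and 32.3. Psip1-001 was close within each group but held 28.5% to 37.1% in the males, between the groups of females.

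In Ptbp2, itself a neuronal splicing repressor, Ptbp2-011 with 726 coding bases had 13.3, 20.5, 10.9 and 5.95 FPKM and the full-length Ptbp2-001 had 11.8, 9.41, 14.2 and 13.6. Grin1, the obligatory NMDA receptor subunit, swapped with small differences: Grin1-001 held 29.6%, 31.5%, 25.5% and 25.9%, and Grin1-004 27.0%, 26.0%, 28.4% and 34.3%. Grin1-004 carries a 111-base exon near the end of the coding sequence that Grin1-001 lacks. Atp5g3, which encodes subunit c of the mitochondrial ATP synthase, had Atp5g3-001 at 70.1%, 69.9%, 26.1% and 34.0%, with an identical coding sequence in Atp5g3-002. In the males Atp5g3-001 was at 25.7%, 70.6%, 77.3% and 63.0%. Chmp2a, from a gene of the ESCRT-III membrane scission complex, had Chmp2a-001 at 62.2%, 57.2%, 23.4% and 21.7%. Fam213a-001 held 40.2%, 34.2%, 29.4% and 31.8%, and Spag9-001, from a kinase scaffold gene, held 38.2%, 34.1%, 25.9% and 28.9%.

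The 2 transcripts of highest mean FPKM were compared in 3597 of the genes classed above, those with a known structure. Their coding sequence was identical in 20.02% of these genes and in 22.5% of the swapped genes. Where a gene had further kept transcripts, this pair need not be the one that swapped the lead. The pairs shared a median of 62.1% of their bases over the 3597 genes and 70.1% in the swapped genes. The corresponding share was 72.3% where the leading transcript differed only within the sponge group and 74.9% only within the wild type group.

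No transcript of the feeding peptides of the arcuate nucleus passed, and the groups overlapped for the main transcript of Pomc, Npy, Cartpt and Agrp. Pomc-201, the single kept transcript of the gene whose promoter drives Cre, had an FPKM of 90.4, 12.4, 37.4 and 71.7 (log2 difference -0.60 ± 1.01, SE, n = 2 and 2, limma adjusted p = 1.00). The sponge libraries lay on both sides of the wild type libraries. Npy-001, which encodes the appetite-stimulating neuropeptide Y, had 59.8, 77.5, 75.1 and 59.9. Cartpt-201, which encodes the CART peptide, had 89.7, 55.2, 12.2 and 74.8, with wild type 2 alone low. Agrp, which encodes the melanocortin antagonist of the feeding-promoting neurons, had 3 kept transcripts. Agrp-002 had 12.4, 39.1, 27.5 and 24.1 FPKM. Agrp-001 (13.8) and Agrp-003 (7.15) were above 0 only in sponge 1. The Agrp total was 22.7, 28.3, 19.95 and 17.5, with both sponge libraries above both wild types and no call (limma adjusted p = 1). In sponge 1 the signal of the gene was spread over 3 transcripts.

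Of the list of arcuate neuropeptides and peptide processing genes, 61 transcripts of 38 genes were kept and none passed. At an unadjusted p under 0.05, 0 were higher and 1 (Vgf-201) was lower, with a median log2 difference of 0.04 against -0.04 for all kept transcripts. Their groups did not overlap in 16.4% of cases, against 31.3% of all kept transcripts. Scg2-001, which encodes secretogranin II, had 190.4, 211, 200.1 and 169.5 FPKM. Nnat-001 had 409, 369, 376 and 29.2, and Nnat-002 had 0.631, 119.7, 131 and 0.210, so 1 library of each group nearly lacked Nnat-002.

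No transcript of the miR-7 targets known from the literature passed. Of 70 kept transcripts of 44 target genes, 1 was higher and 2 were lower with an unadjusted p below 0.05 (4.29%, against 4.31% of all kept transcripts), and none passed. Their median log2 difference was -0.12 against -0.04 for all kept transcripts, and 28 of 70 were positive. The groups did not overlap in 6 higher and 19 lower cases (35.7%, against 31.3% of all kept transcripts, 12.5% higher and 18.7% lower). The lower transcripts were Pfn2-001 and Keap1-003. Pfn2 encodes the neuronal actin-binding protein profilin 2. Pfn2-001 had 23.1, 28.0, 86.6 and 98.5 FPKM, a log2 difference of -1.82 ± 0.20 (SE, n = 2 and 2, limma adjusted p = 0.352), with the groups well apart. In the males it had 81.3 and 79.8 in the knockouts and 73.7 and 28.4 in the wild types, so 1 wild type male was near the sponge females. Its share was 89.4%, 83.0%, 83.2% and 96.8%, and the gene total followed it at 16.0, 20.8, 65.1 and 66.4 FPKM. Pfn2-002 had 0.378, 3.10, 12.4 and 1.44, Pfn2-004 had 1.88, 1.80, 3.01 and 1.23, and Pfn2-005 had 0.477, 0.848, 2.11 and 0.629, all with overlapping groups.

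Keap1-003, which encodes the oxidative stress sensor that restrains Nrf2, had 11.4, 11.8, 17.4 and 18.9. Among the most abundant targets, Vdac1-001, which encodes a mitochondrial anion channel, had 109.9, 51.1, 114 and 105, with overlapping groups. Ndufa4-001, which encodes a respiratory chain subunit, had 151, 133, 125 and 101, with both sponge libraries above both wild types, and did not pass. Ndufa4-001 held a higher share in both sponge libraries, 98.1% and 96.2% against 91.9% and 93.2%.

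The 3′ UTR of each kept transcript was searched for the miR-7 seed match on its own strand. The 7mer-m8 match is GTCTTCC and the 8mer match is GTCTTCCA, so each 8mer also counts as a 7mer-m8. A 3′ UTR was annotated for 16291 of the kept transcripts (91.0%), and 1889 of them (11.6%) held a match, 534 an 8mer and 262 more than 1 match. The site of Pfn2 is shown because Pfn2-001 had the smallest level p among the target transcripts with a match. It is printed 5′ to 3′ on the minus strand of GRCm38 with the match in capitals, at chr3:57842728-57842750.
Pfn2-001 and Pfn2-002: tccttggctcatctaGTCTTCCt

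Transcripts with and without a match had similar distributions of the log2 difference. Those with a match had a median log2 difference of -0.05 and those without one -0.04, and 4.82% and 4.27% had an unadjusted p under 0.05, against 4.31% of all kept transcripts. Of the transcripts with a match, 38 were higher and 53 lower at that level. Those with an 8mer had a median of -0.07, with 13 higher and 14 lower, and those with more than 1 match a median of -0.05. Transcripts with a match had longer 3′ UTRs, with a median of 2172 bases against 837. Among the 62 literature target transcripts with a searched 3′ UTR, 37 held a match, and their median was -0.12 against -0.02 for the other 25.

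Transcripts of one gene can differ in whether they carry the site, and this holds the gene total fixed. In 298 genes with kept transcripts of both kinds, the summed share of those with a match did not overlap between the groups in 95 (31.9%), in 47 higher and in 48 lower in the sponge libraries. The median difference was 0.02 percentage points. Between replicates, the same share differed by a median of 10.6 points in the sponge group and 9.68 in the wild type group.

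**Figure D5:**
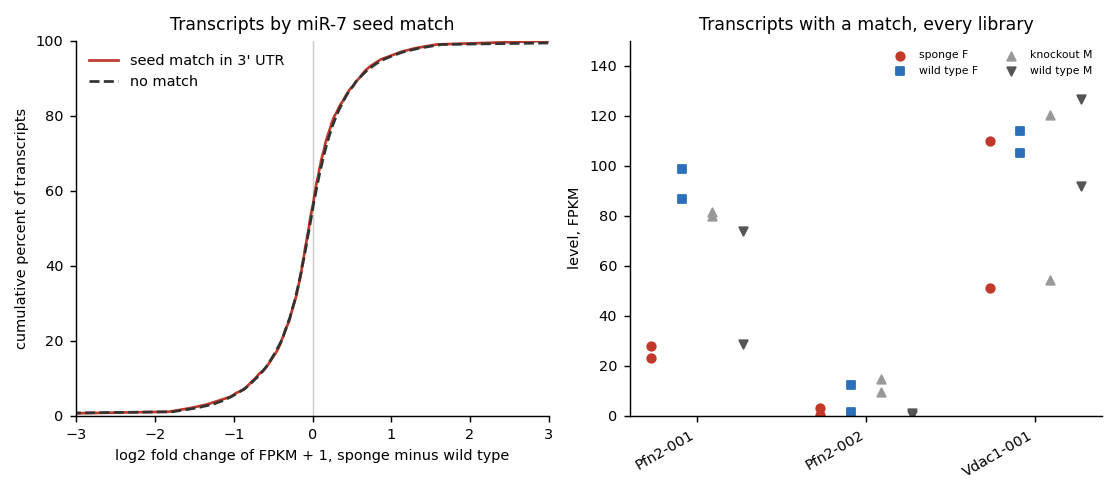
Left, cumulative percent of transcripts by log2 fold change of FPKM + 1 (sponge minus wild type) for 1889 transcripts with and 14402 without a miR-7 seed match in the 3′ UTR (axis drawn from -3 to 3). The curves lie on each other, with medians of -0.05 and -0.04. Right, FPKM of 3 transcripts with a match in each library, 1 point per library: Pfn2-001 is lower in both sponge females than in both wild type females.

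Actin turnover genes were followed because profilins feed actin monomers to growing filaments. Of 85 kept transcripts of 44 genes, 3 were higher and 2 lower with an unadjusted p below 0.05 (5.88%, against 4.31% of all), and none passed. Besides Pfn2-001, Tmod2-201, which encodes a neuronal cap of the slow-growing filament end, had 11.5, 13.1, 53.0 and 60.7 FPKM (log2 difference -2.12 ± 0.20, SE, n = 2 and 2, limma adjusted p = 0.252). In the males Tmod2-201 had 51.8 and 15.9, and 40.4 and 10.6, so each male group held a high and a low library. Arpc5-001, which encodes a subunit of the branching Arp2/3 complex, had 27.3, 34.0, 5.98 and 6.64 (adjusted p = 0.321). In the males it had 5.98 and 6.93 in the knockouts and 31.3 and 32.4 in the wild types. Actr3-001, which encodes another subunit of that complex, had 45.03, 48.9, 30.05 and 28.1. Pak3-009, from a kinase gene acting on the actin skeleton, had 6.07, 15.6, 1.26 and 2.72. The abundant Actb-001, which encodes β-actin, had 604, 315, 345 and 399, with overlapping groups. Cfl1-201, which encodes cofilin, had 101, 52.9, 113 and 229, with both sponge libraries below both wild types, and did not pass.

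Splicing regulators are proteins that choose which exons of other transcripts are kept. Of 185 kept transcripts of 73 genes, 2 were higher and 5 lower with an unadjusted p below 0.05 (3.78%, against 4.31% of all), and none passed. The median log2 difference was -0.14, and the groups did not overlap in 11 higher and 42 lower cases (28.6%, against 31.3% of all kept transcripts). Srrm4-001, which encodes the neuronal microexon factor, had 0.648, 0.790, 3.86 and 5.04 FPKM. Ptbp3-001, from a paralog of the polypyrimidine tract binding protein, had 1.10, 0.970, 3.05 and 4.88. Hnrnpl-004, from an hnRNP gene, had 6.10, 7.53, 11.7 and 19.8. Tial1-004, from the gene of an RNA-binding protein of stress granules, had 4.15, 2.89, 6.99 and 12.1. Tardbp-001, which encodes TDP-43, had 4.60, 4.49, 1.05 and 1.498 against Tardbp-006 at 0, 2.77, 16.7 and 3.23. The most abundant member, Hnrnpk-002, had 61.6, 60.9, 71.1 and 71.6, a share of 60.3%, 54.6%, 62.3% and 62.3%.

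Neuronal genes with well described isoforms gave 313 kept transcripts of 80 genes, the longest list. Of these, 6 were higher and 7 lower with an unadjusted p below 0.05 (4.15%, against 4.31% of all), and none passed. Pkm encodes pyruvate kinase, whose muscle and embryonic forms, PKM1 and PKM2, use one or the other of a pair of mutually exclusive exons. Pkm-201 carries the downstream exon of the pair (PKM2) and Pkm-202 the upstream one (PKM1). Pkm-201 had 80.7, 75.0, 44.5 and 39.2 FPKM (log2 difference 0.88 ± 0.18, SE, n = 2 and 2, limma adjusted p = 0.812), and Pkm-202 had 233, 267, 356 and 300.3. The share of Pkm-201 was 25.8%, 21.95%, 11.1% and 11.6%, close between replicates. The 4 male libraries, at 16.5%, 16.7%, 15.6% and 12.2%, lay between the female groups. The exons are printed because they are the whole coding difference between the pair: coding bases 1141 to 1307, at chr9:59675568-59675734 for Pkm-201 and chr9:59675029-59675195 for Pkm-202, plus strand, GRCm38, as GENCODE M21 gives them. Pkm-202 has other outer ends in that annotation than in the deposited table.
Pkm-201 exon: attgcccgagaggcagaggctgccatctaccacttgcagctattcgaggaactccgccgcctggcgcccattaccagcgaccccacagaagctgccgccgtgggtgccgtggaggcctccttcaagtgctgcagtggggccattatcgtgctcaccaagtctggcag
Pkm-202 exon: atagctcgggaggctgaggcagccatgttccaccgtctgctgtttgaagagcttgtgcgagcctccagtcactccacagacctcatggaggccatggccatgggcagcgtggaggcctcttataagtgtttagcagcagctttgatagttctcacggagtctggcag

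Gnas encodes the stimulatory G protein α subunit. Gnas-201 had 383, 236, 83.0 and 119 FPKM and Gnas-002, with an identical coding sequence, had 1.94, 42.1, 107 and 164. The share of Gnas-201 was 82.2%, 61.8%, 26.7% and 32.7% in the females and 42.2%, 65.3%, 35.8% and 23.98% in the males, so 1 knockout male lay above the lower of the sponge values. Mapt-007, from the tau gene, had 25.9, 20.3, 42.7 and 40.8. Snap25, whose a and b forms use alternative copies of an exon, had Snap25-001 at 127, 53.1, 57.7 and 131 and Snap25-002 at 44.6, 44.8, 37.7 and 99.5, with overlapping groups. In the gene of the brain-derived neurotrophic factor receptor, the short Ntrk2-202 (109, 85.9, 77.9 and 106 FPKM) held 65.4% to 74.2% and the longer Ntrk2-201 held 25.8% to 34.6%, also with overlapping groups. Map2-001, from the dendritic microtubule protein gene, held 75.4%, 74.0%, 73.5% and 76.7%.

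Feeding and hormone receptors and their signalling genes gave 61 kept transcripts of 35 genes, of which 2 were higher and 1 lower with an unadjusted p below 0.05 (4.92%, against 4.31% of all), and none passed. Prkaa2-001, which encodes a catalytic subunit of the energy sensor AMPK, had 2.78, 7.24, 1.16 and 1.18 FPKM. Tsc1-002, from the gene of an mTOR complex inhibitor, had 4.58, 2.66, 0.820 and 1.48. Thrb-201, from a thyroid hormone receptor gene, had 1.01, 2.50, 5.09 and 5.60. Htr2c, the serotonin receptor of POMC neurons, had Htr2c-002 at 76.1%, 100%, 56.7% and 43.2%. Htr2c-003, whose coding sequence is shorter (519 against 1380 bases), held the rest and was at 0 in sponge 2.

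Glial lists were checked as possible differences in tissue content. Oligodendrocyte genes gave 50 kept transcripts with a median log2 difference of -0.28 against -0.04 for all. The groups did not overlap in 3 higher and 17 lower cases (40%, against 31.3%), and 1 was higher and 4 lower with an unadjusted p below 0.05 (10%, against 4.31% of all). The 24 listed genes summed to a gene FPKM of 305 and 290.2 with the sponge and 449 and 380.5 without, with none at 0. Mbp-010, from the myelin basic protein gene, had 34.7, 88.3, 138 and 156 FPKM, while Mbp-203 had 57.8, 0.840, 2.45 and 3.61, so sponge 1 stood alone in its make-up of Mbp. Mobp-002, from another myelin gene, had 0.525, 0.422, 4.59 and 5.58. Mag-006, from the gene of a myelin glycoprotein, went the other way, at 5.50, 5.55, 1.75 and 2.18.

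Astrocyte genes gave 38 kept transcripts with a median of -0.16, 5 higher and 11 lower without overlap (42.1%, against 31.3% of all), and summed to 1166 and 1163 against 1263 and 1435. In this list Slc1a2, the main astrocyte glutamate transporter, had the smallest share p. Slc1a2-001 had 148, 155, 135 and 184 FPKM and Slc1a2-004 had 4.56, 10.5, 34.3 and 48.7 (log2 difference of the latter -2.39 ± 0.44, SE, n = 2 and 2, limma adjusted p = 0.758). The share of Slc1a2-004 was 2.94%, 6.30%, 19.4% and 20.8% in the females and 19.5%, 11.3%, 2.67% and 10.5% in the males, so the males ranged from about the share of the sponge females to that of the wild type females. The transcripts encode the C-terminal forms known as GLT-1a and GLT-1b, and the ends of their coding sequences are printed because they are what distinguishes the proteins. They lie on the plus strand of GRCm38 at chr2:102781463-102781534 and chr2:102777656-102777694 (GENCODE M21), with the stop codon in capitals.
Slc1a2-001 end: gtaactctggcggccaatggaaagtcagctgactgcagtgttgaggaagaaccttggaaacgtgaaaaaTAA
Slc1a2-004 end: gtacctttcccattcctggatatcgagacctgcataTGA

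Other cell type lists were small and none had a member that passed. Pan-neuronal genes had a median of -0.16 over 46 transcripts, with 0 at an unadjusted p under 0.05. Tanycyte genes had a median of 0.06 over 24, ependymal genes 0.02 over 21, microglial genes -0.05 over 22 and endothelial and mural genes -0.10 over 27. Meningeal and fibroblast genes had a median of 0.38 over 21 transcripts. They summed to 294 in sponge 1 and to 103, 108 and 127 in the other libraries, so sponge 1 stood apart. Most of each sum came from Ptgds alone, with a gene FPKM of 229, 62.3, 63.5 and 90.6. Ptgds-004, from the prostaglandin D synthase gene of that list, held 11.1%, 21.8%, 61.7% and 59.3%. Choroid plexus genes had a median of -0.34 over 14 transcripts and summed to 54.9 and 80.7 with the sponge and to 573 and 50.6 without. Pituitary genes had a median of 0.25 over 5 transcripts and summed to 64.4, 7.76, 28.7 and 7.21. The part of these differences in the results above was not tested.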

How the data were processed

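Per the labels' protocols, poly(A) RNA from pooled arcuate nuclei went into strand-specific libraries that were sequenced from both ends. FastQC, cutadapt, HISAT2 2.0.4 and StringTie 1.2.3 with mm10 and GRCm38 are named in the submitters' processing notes. The authors deposited FPKM per transcript and per gene, which the design text attributes to Ballgown, for protein-coding features. Per the labels, the second read file of sponge 2 could not be provided, and how its values were made was not stated. The depth is unknown.

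Transcripts and genes were kept where their FPKM averaged 1 or more across the female libraries. The pseudocount was 1 FPKM. limma 3.58.1 in R 4.3.3 (lmFit and eBayes with a trend, two-sided, Benjamini-Hochberg over all features tested) was run on log2(FPKM + 1), and on log2 shares of genes with 2 or more listed transcripts. The code was tested on simulated data. Values after ± are standard errors. The deposited fold changes and p-values were not used. The listed transcripts of a gene summed to a median of 1.16 to 1.17 times its deposited gene total, so shares use the sum of listed transcripts. The exceptions are the share differences of top transcripts and the seed-match shares within genes, which use kept transcripts alone. Structures and 3′ UTRs came from GENCODE M21, to which 99.6% of kept transcripts matched by identifier, 85.3% at the same coordinates.

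Members and gene lists were chosen with earlier results of these data known. The transcripts named are those of Pomc, Agrp, Npy, Cartpt and Pfn2; per direction the 6 transcripts of smallest level p; the 6 genes of smallest share p with a mean sum of at least 5 FPKM, both with groups that do not overlap; the 10 swapped genes of highest sum; and per list the 2 genes of smallest share p and the 2 of highest level, of which those of the smaller cell type lists are not printed. Others, among them list members named for an unadjusted p under 0.05, were chosen after their values were seen. Some items are not reported here.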

Additional observations from a re-analysis of the deposited data

How the results depend on the processing

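No transcript was called under any of the 11 alternatives to the level test (pseudocount, filter, scaling, trend, quantile normalization and leaving out each library). For shares, diffSplice called 13 of 9689 (in Sptan1, Eef1a1, Lsamp, Rab33b, Afap1l2, Rlbp1 and Dhcr7), and the other alternatives called 0. The 14 gene calls became 6 with a pseudocount of 0.1 FPKM and 0 at a mean FPKM of at least 5, and 0 to 0 on leaving out each library in turn; they stayed between 12 and 14 otherwise. Leaving out 1 library leaves its group with 1 sample, assumed to vary like the other group.

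Rescaling moved the median log2 difference from -0.04 to -0.00124, and quantile normalization moved it to 0.01, which changes the split of unadjusted calls from 333 higher and 439 lower to 351 and 348, and to 395 and 382. Some log2 differences changed sign on leaving out each library in turn. They ranged from -1.98 to 0.79 for Pomc-201 (0.79 without sponge 2), from -1.0002 to 0.58 for Agrp-002 (0.58 without sponge 1) and from -0.16 without sponge 2 to 0.21 for Npy-001 (-0.14 without wild type 4). Without wild type 2, Cartpt-201 went to -0.086 (up to 2.44 otherwise), Pfn2-004 to 0.35 (down to -0.50) and Pfn2-005 to 0.020 (down to -0.91). None of these was called. Under diffSplice the shares of Sptan1-004 (adjusted p = 0.0151), Rab33b-002 (0.0194) and Dhcr7-201 (0.0283) passed. None of them passed the main share test, and diffSplice treats the transcripts of a gene as independent. The cause of these shifts was not tested. No paired analysis was possible because the groups share only 1 replicate number. With 2 libraries a group and unknown depth, differences smaller than the spread between replicates cannot be seen, and a transcript at 0 may be a failed estimate.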
